A study of Mus musculus with 4 samples.

Results

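The microRNA (miRNA) profile of resting mouse synovium, the tissue that lines joints, was described from the 2 pools of non-arthritic synovium among the 4 pools of the study. Each of the 2 pools held tissue from 3 C57BL/6J mice, dissected from around the tibiotalar (ankle) joint at day 0. The labels name K/BxN as the strain that gave the serum and serum transfer arthritis as the model for every sample, including these, and do not say whether the day 0 mice had been injected. The 2 arthritic pools, from 10 mice each at day 10, are mentioned only for miR-302b and other members of its cluster. Members were chosen by group label and by assay. All 750 miRNA assays of the chips were kept, 375 on panel A and 375 on panel B, together with 6 control RNAs read on both panels. Because tissue of 3 mice was mixed, differences between single mice cannot be seen, and the 2 pools, which the labels call biological replicates, are the only measure of biological spread (n = 2).

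miRNAs are short RNAs cut from hairpin precursors, which can release a strand from either arm (named 5p and 3p). Bases 2 to 8 of the mature strand, the seed, pair with messenger RNAs that the miRNA represses, so miRNAs with a common seed are grouped as a family. Synovium consists of a lining of macrophages and fibroblasts over connective tissue with vessels and fat, and dissected tissue can carry muscle, cartilage or skin with it. Several miRNAs are known mainly from 1 kind of cell, for example miR-126 from endothelium, miR-133a from muscle and miR-223 from myeloid cells.

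Each assay was read by TaqMan real-time PCR in 2 technical wells per pool. The value is the Ct, the cycle at which the signal crosses a threshold, so that a low Ct stands for a strong signal and 1 cycle less for about 2 times as much product. Ct also depends on how well an assay works. The order of assays below is therefore an order of signal, kept within a panel, and not of copies per cell. In pooled tissue, fewer cells of a type and less of a miRNA per cell cannot be told apart.

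The mature strands of 11 of the 15 panel A assays with the lowest Ct are shown here first, because they carry the main result, in order of signal and with the seed in capitals. They come from RefSeq (GRCm38.p6), 5′ to 3′.
miR-126-3p: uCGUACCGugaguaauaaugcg
miR-24: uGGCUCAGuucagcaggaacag
miR-191: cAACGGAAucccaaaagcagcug
miR-30c: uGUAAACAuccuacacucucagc
miR-146a: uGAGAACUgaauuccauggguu
miR-193b: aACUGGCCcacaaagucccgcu
let-7c: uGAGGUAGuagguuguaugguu
miR-302b: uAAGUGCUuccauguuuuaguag
miR-125a-5p: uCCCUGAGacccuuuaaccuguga
miR-26a: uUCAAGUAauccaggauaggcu
miR-125b-5p: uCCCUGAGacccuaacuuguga
Among these strands miR-125a-5p and miR-125b-5p share a seed, and the others each have their own. miR-126-3p is encoded at chr2:26591402-26591423 (plus strand), as background in an intron of Egfl7, a gene of endothelial cells. miR-302b lies at chr3:127545275-127545297 (plus strand). miR-24, miR-30c, let-7c, miR-26a and miR-125b-5p each come from 2 loci in the table, so that their signal cannot be assigned to 1 gene. The assays miR-133a, miR-150, miR-145 and miR-30b complete the 15.

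On panel A 171 of 375 assays (45.6%) gave a Ct in both resting pools, 11 in 1 pool and 193 in none. On panel B 104 of 375 (27.7%) gave a Ct in both, 20 in 1 pool and 251 in none. Over both panels 275 of 750 assays were read in both pools, 294 in pool 1 and 287 in pool 2, and 444 in neither. All 4 wells gave a Ct for 157 panel A assays and for 91 panel B assays. The single wells ran from a Ct of 2.50 to one of 26.997, and a well with no Ct sets no lower bound of its own. The authors' guide, deposited with the data, gives lower Ct values for this chip format than for conventional PCR. Absence of a Ct is thus a statement about this range and about the assay used. For example, miR-467a was at 22.9 on panel A, and its panel B assay gave no Ct in the resting pools. The mouse-named miR-381 assay was at 14.9, and the rat-named one gave none.

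Signals were spread over the whole range and were weaker on panel B. On panel A 25 assays had a mean Ct under 8, 36 lay from 8 to 12, 38 from 12 to 16, 30 from 16 to 20, 29 from 20 to 24 and 13 at 24 or above. On panel B the same bands held 8, 13, 19, 23, 27 and 14 assays. The median Ct of the assays read was 14.8 in pool 1 and 14.3 in pool 2 for panel A, and 19.4 and 18.3 for panel B. The panels hold different assays and are separate reactions. U6, a small nuclear RNA used as a control, had a Ct of 7.08 ± 0.74 on panel A and 5.07 ± 0.68 on panel B (SD, n = 2 pools). The small nucleolar RNA snoRNA202 was at 8.70 and 7.005, and snoRNA135 at 22.2 and 17.6, so all 3 were read earlier on panel B. The control RNAs U87 and Y1 and the plant assay ath-miR159a gave no Ct in any well of the resting pools.

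**Figure D1:**
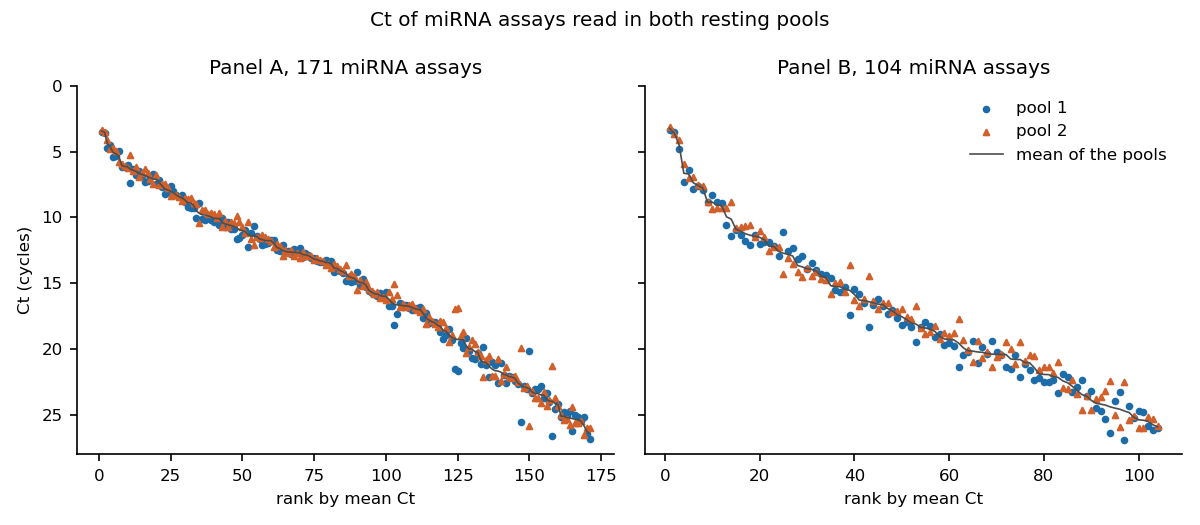
Ct (cycles, axis turned so that strong signals are at the top) of each miRNA assay read in both resting pools against its rank by mean Ct, for panels A and B. Circles are pool 1, triangles pool 2 and the line their mean. Both pools follow the same curve, with 171 points per pool for panel A and 104 for panel B.

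The 15 strongest panel A signals held miRNAs of the endothelial, muscle, smooth muscle, lymphoid and adipose lists beside broadly expressed ones and miR-302b. No member of the fibroblast or cartilage list was among them. miR-126-3p, the endothelial miRNA, had the lowest mean Ct, with 3.54 and 3.53 in the wells of pool 1 and 3.42 and 3.22 in those of pool 2 (mean 3.43 ± 0.15, SD, n = 2 pools). miR-24, a broadly expressed miRNA of the miR-23/24/27 clusters, gave 3.51 and 3.59 in pool 1 and 3.37 and 3.57 in pool 2 (3.51 ± 0.06). The wells of these assays overlapped, and their order is not resolved.

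miR-133a, which belongs to striated muscle, was the third, with 4.62 and 4.79 in pool 1 and 4.07 and 4.12 in pool 2. miR-191, abundant in many tissues and in blood cells, followed with 4.72 and 4.30 in pool 1 and 5.04 and 4.52 in pool 2. miR-150, a miRNA of mature lymphocytes, had Ct values of 5.36 and 5.51 in pool 1 and of 4.44 and 4.96 in pool 2. The pool 2 wells of miR-133a and miR-150 were both below their pool 1 wells, while those of miR-191 overlapped.

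miR-30c gave 4.72 and 5.99 in pool 1 and 4.47 and 5.44 in pool 2. miR-146a, which NF-kappaB induces and which damps inflammatory signalling, gave 4.99 and 4.94 in pool 1 and 5.97 and 5.57 in pool 2, so that its signal was the stronger one in pool 1. miR-145, of smooth muscle and pericytes, had a mean Ct of 6.04 ± 0.12 (SD, n = 2 pools). miR-193b, linked to brown fat and to muscle, was at 6.12 ± 0.11, let-7c at 6.14 ± 0.19 and miR-302b at 6.34 ± 1.496. miR-125a-5p, miR-26a, miR-125b-5p and miR-30b closed the 15 at 6.41, 6.49, 6.66 and 6.73.

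Most neighbours in this order were not resolved. The SD between duplicate wells on panel A was 0.889 cycles, and 0 of the 14 steps from 1 of these assays to the next exceeded it. That SD is for single wells over 324 duplicate pairs at all levels of Ct. It is thus a wide measure for steps between means of strong assays. In 12 of the 14 steps the pools of the neighbours overlapped. In the other 2 they did not, from miR-24 to miR-133a (0.888 cycles) and from miR-146a to miR-145 (0.673 cycles). All wells of miR-24 lay below all wells of miR-133a. The whole span from the first to the fifteenth assay was 3.30 cycles. When each Ct was taken relative to the median of its chip, 10 of the 15 stayed among the 15 lowest.

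The panel B list was led by assays of a different kind. miR-2134 had Ct values of 3.36 and 3.33 in pool 1 and of 2.50 and 3.68 in pool 2 (mean 3.22), and miR-1937b had a mean of 3.598. The well at 2.50 was the lowest of all, and whether it is a floor value was not checked. In pool 1 alone miR-2134 was at 3.34 and miR-1937b at 3.54. miR-720 was at 6.69 and miR-1937c at 7.76. As background, miR-720 and the miR-1937 entries match transfer RNA and were later taken out of the miRNA catalogue. Of the 60 mouse-named panel B assays read in both pools, 10 were matched by name to a mature strand. miR-2134 was not among them, and whether that entry is a miRNA was not checked.

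Of the other strong panel B assays, the human-named assay of miR-223, a miRNA of neutrophils and other myeloid cells, gave 5.04 and 4.62 in pool 1 and 3.98 and 4.24 in pool 2. The human-named assay of miR-206, a miRNA of skeletal muscle, gave 7.61 and 7.05 in pool 1 and 5.75 and 6.15 in pool 2. For both, the pool 2 wells lay below those of pool 1. The 3p strands of miR-30e and miR-30a were at 7.36 and 7.56, and the human-named assays of miR-143 (smooth muscle) and miR-214 (mesenchyme) at 8.83 and 9.10. miR-2146, the rat-named miR-664 and miR-146B, the human-named miR-421 and miR-93# (the minor strand of miR-93) were at 8.83, 9.05, 9.95, 10.1 and 10.9. The duplicate wells of miR-421 disagreed, with 14.2 and 8.64 in pool 1 and 10.1 and 7.52 in pool 2, and with the lower well alone its mean was 8.08. The duplicate SD on panel B was 1.08 cycles and 1 of 14 steps exceeded it, the step of 2.17 cycles from miR-223 to miR-206.

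**Figure D2:**
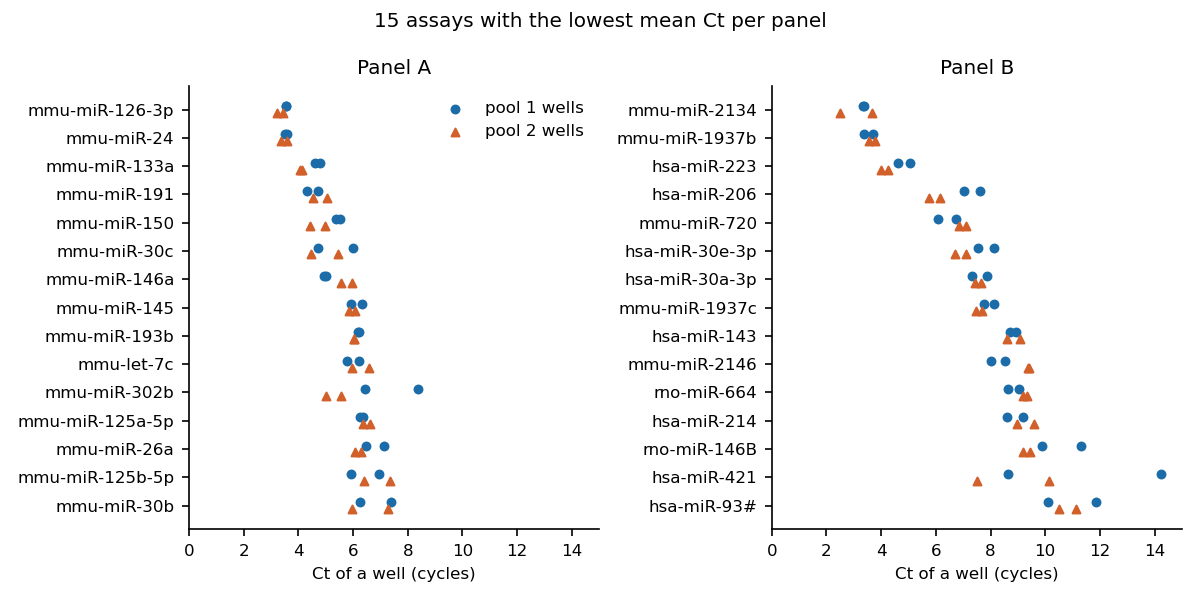
Ct (cycles) of every well for the 15 assays of each panel with the lowest mean Ct. Circles are the 2 wells of pool 1 and triangles those of pool 2. miR-302b on panel A and miR-421 on panel B have the most scattered wells.

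The pools gave nearly the same order. Spearman's rank correlation between the pools' Ct values was 0.987 across the 171 assays of panel A and 0.970 across the 104 of panel B. This describes assays that share chips and cover a wide range of Ct. Of the 20 assays with the lowest Ct in each pool, 18 were shared on each panel. The median absolute difference between pools was 0.453 cycles on panel A and 0.865 on panel B. Pool 2 had the lower Ct for 106 of 171 and 60 of 104 assays, with a median of pool 2 minus pool 1 of -0.15 and -0.19 cycles. Differences over 2 cycles were found for 8 and 13 assays. Among the assays with a Ct in all 4 wells, the wells of the pools did not overlap for 34.4% (panel A) and 45.1% (panel B). The second listed well tended to be the later one on panel A (median 0.38 cycles). On chip B3 it was the earlier one in pool 1 (median second minus first -1.89 cycles). The miR-2134, miR-720 and miR-664 assays of that chip did not show a shift of this size. Their first and second pool 1 wells were at 3.36 and 3.33, at 6.76 and 6.08, and at 8.63 and 9.06.

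Among panel A assays with a Ct in all 4 wells, the largest pool differences were those of miR-7a and miR-1. miR-7a, a miRNA of neurons and endocrine cells, gave 21.7 and 21.6 in pool 1 and 16.7 and 17.1 in pool 2, a difference of -4.75 cycles. miR-1, of skeletal and heart muscle, gave 21.6 and 21.3 in pool 1 and 16.2 and 17.7 in pool 2 (-4.52 cycles), and the rat-named assay of miR-1 gave 17.98 and 18.4 against 14.7 and 15.4 (-3.10 cycles). The assays of miR-1, rat-named miR-1 and miR-7a occupy positions 1, 2 and 3 of chip A2, side by side. The 2 assays of miR-1 are therefore not independent readings, and the part of their position in the difference was not tested. miR-322, of the miR-15/16 seed family, ran the other way, with 19.4 and 20.4 in pool 1 and 22.1 and 22.2 in pool 2. A second miR-322 assay, on panel B, was at 21.1 in pool 1 and 20.9 in pool 2 and did not show that difference.

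On panel B miR-1928 differed by -3.87 cycles through 1 well at 9.61, while its other wells lay from 18.2 to 19.3. miR-2138 gave 11.2 and 11.1 in pool 1 and 14.3 and 14.3 in pool 2, a difference of 3.18 cycles with close duplicates. The differences of miR-805, miR-1930 and the human-named miR-425 were -3.62, -2.73 and -2.63 cycles. All 3 had both pool 2 wells below the pool 1 wells, and miR-805 had uneven duplicates in pool 1, 23.8 and 18.97.

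The cell type lists place miRNAs known from single kinds of cells in this order of signal. Counts of members read stand against the 45.6% of all panel A assays and the 27.7% of all panel B assays read in both pools. Of the fibroblast and mesenchymal list 7 of 8 members were read, 5 of them panel A assays and 2 panel B assays. The strongest was miR-214, encoded with miR-199a in an antisense transcript of the Dnm3 gene, at 8.68 and 9.20 in pool 1 and 10.6 and 10.3 in pool 2. miR-152 was at 9.88, miR-199a-3p at 11.4, miR-199b at 12.2, the human-named miR-22 at 14.5, miR-10b at 16.7 and miR-10a at 20.9. miR-199a-5p gave no Ct in any well, while miR-199a-3p was read in all 4. The 3p strand comes from at least 2 loci, so its signal cannot be assigned to 1 hairpin. The cartilage miRNAs were weaker, with miR-140, which chondrocytes need for normal growth, at 13.4 and miR-455 at 18.97.

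For vessels, all 3 endothelial members were read. The 5p strand of miR-126 was at 10.1, behind its 3p strand at 3.43, and miR-296-5p at 25.1 with a Ct in 3 wells. Both smooth muscle and pericyte members were read, miR-145 at 6.04 and the mouse-named miR-143 at 11.003. As background, both come from 1 transcript. Of the adipose list 6 of 7 were read, led by miR-193b, with the human-named miR-196a and miR-378 at 11.04 and 11.2, miR-26b at 11.7, miR-365 at 17.9 and miR-103 at 18.2. miR-335-5p gave a Ct in 1 well.

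Blood cell miRNAs were read from the red cell, myeloid and lymphoid lists. The erythroid miR-451 was at 11.8 and miR-486 at 14.2, and miR-144, encoded beside miR-451, gave no Ct. Of 4 myeloid members 3 were read in both pools, the mouse-named miR-223 at 8.52, miR-142-3p at 15.5 and miR-511, of macrophages, at 16.7, while miR-142-5p gave 25.5 in a single well. Of 7 lymphoid and broad haematopoietic members with an assay 6 were read. These were miR-191, miR-150 and miR-146a, given above, and miR-342-3p at 12.6, miR-181a at 13.3 and miR-181c at 18.6. miR-155, which activated lymphocytes and macrophages make, had a Ct of 26.97 in 1 well of pool 1 and none in the other 3.

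The lists for epithelium, nerve, liver and gut, all on panel A, where 45.6% of assays were read, were read in part. Of the 10 epithelial members 3 were read, miR-203, of skin keratinocytes, at 9.08, miR-182 at 11.8 and miR-205 at 21.996. miR-200a, miR-200b, miR-141, miR-429, miR-183 and miR-96 gave no Ct, and miR-200c gave 26.8 in 1 well. Of the 9 neural members 3 were read, miR-218 at 7.84, miR-138 at 10.9 and miR-128a at 22.9, while the neuronal miR-124, miR-9, miR-137, miR-153, miR-219 and miR-129-3p gave none. Of 4 liver and gut members miR-192 was at 12.6 and miR-194 at 14.8, and miR-122, the miRNA of hepatocytes, and miR-215 gave none.

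Members of the skeletal muscle list lay at both ends of the range. Of its 6 members 4 were read in both pools and the heart and slow-muscle miRNAs miR-208 and miR-499 in none. miR-133a and miR-206 were among the strongest signals of their panels, at 4.400 and 6.64, whereas miR-1 was at 19.2 and miR-133b at 21.7. The label of the tissue is synovium, and no miRNA on the chips defines synovium alone. The fibroblast, endothelial and myeloid miRNAs given above were read, and the muscle miRNAs were read beside them. Their part in the profile was not tested.

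**Figure D3:**
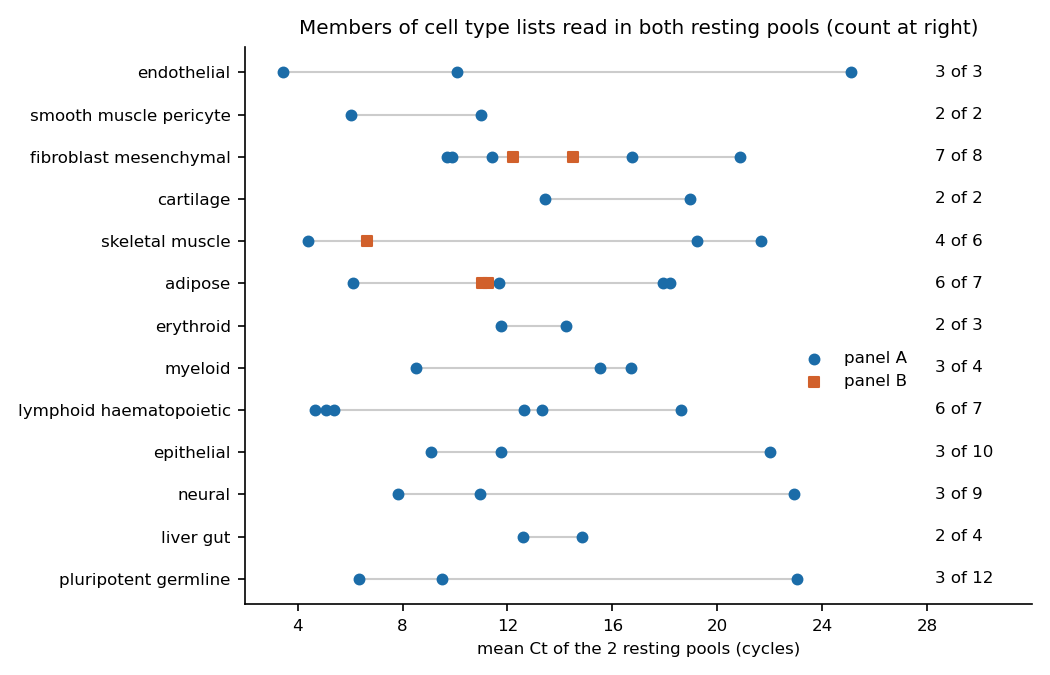
Mean Ct (cycles) of the 2 resting pools for each member of 13 cell type lists that was read in both pools. Circles are panel A assays and squares panel B assays. The numbers at the right give members read out of members with an assay, from 3 of 3 for endothelial to 3 of 12 for pluripotent and germline miRNAs.

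The muscle miRNAs also separated the pools. All 4 had both pool 2 wells below both pool 1 wells, 3 of them on panel A, where 17.2% of assays did so, and 1 on panel B, where 25.3% did. The differences were -4.52 cycles for miR-1, -1.85 for miR-133b, -1.38 for miR-206 and -0.61 for miR-133a, with a list median of -1.61 against -0.15 over the assays of panel A and -0.19 over those of panel B. U6 itself had differences of -1.04 cycles on panel A and -0.96 on panel B. Relative to U6 the list median was -0.61 and 3 of 4 members stayed lower in pool 2, miR-133a turning. Relative to snoRNA202 it was -0.23, and miR-133a and miR-206 turned. Without the miR-1 assay, which neighbours the miR-7a assay with a like difference, the list median was -1.38. The direction of miR-1 and miR-133b was the same under each scaling tried.

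The fibroblast list leaned the other way. Of its 7 members read, 5 had the lower Ct in pool 1, and for miR-214, miR-199a-3p and miR-199b the wells did not overlap. The share of all assays with non-overlapping wells lower in pool 1 was 17.2% for panel A and 19.8% for panel B. The differences were 1.49, 0.44 and 0.65 cycles. The list median was 0.39, and 0.11 with 4 of 7 members lower in pool 1 when each Ct was taken relative to the median of its chip. miR-10a and miR-152 had the lower Ct in pool 2 and turned with U6 or snoRNA202, and miR-10b turned with the chip median. The human-named assay of miR-214, on panel B, had a difference of 0.38 cycles with overlapping wells. Both cartilage miRNAs were lower in pool 1 without overlap, miR-140 by 0.39 and miR-455 by 1.00 cycles, and stayed so under each scaling tried. With 2 pools these differences cannot be set against a spread among like pools.

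**Figure D4:**
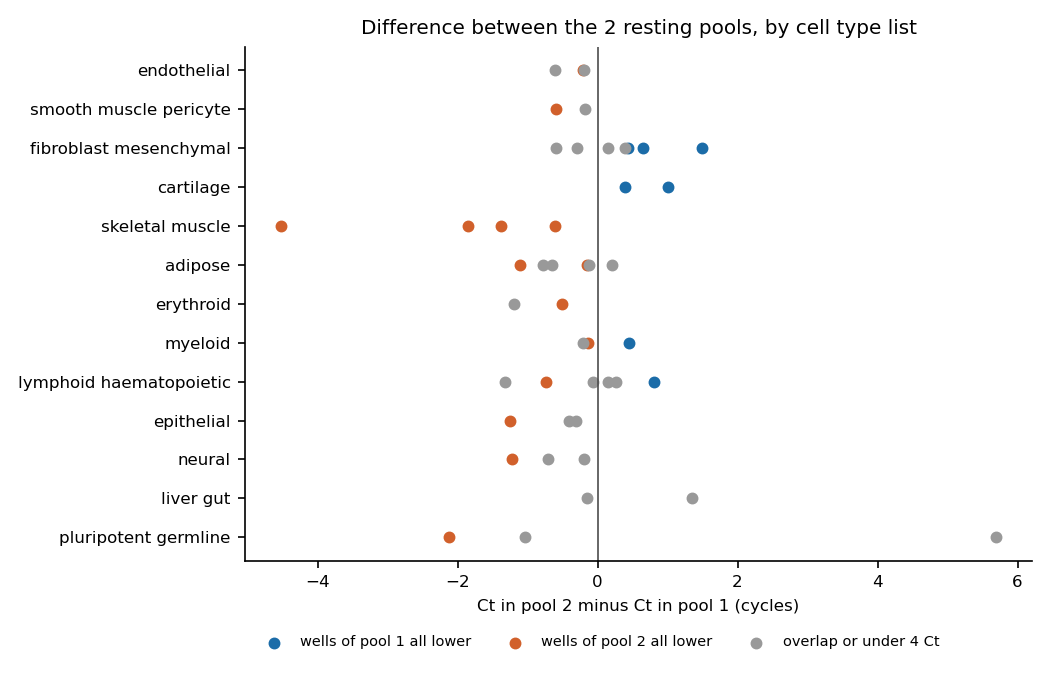
Ct in pool 2 minus Ct in pool 1 (cycles) for each list member read in both resting pools. Orange points have both pool 2 wells below both pool 1 wells, blue points the reverse, and grey points overlap or have fewer than 4 wells with a Ct. The 4 skeletal muscle members lie left of 0 and the 2 cartilage members right of it.

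Members of 1 seed family differed widely in signal. Of the 167 mouse-named panel A assays read in both pools 129 were matched by name to a mature strand, and these have 95 seeds, of which 19 are shared by at least 2 assays. The sequences below show pairs with the same seed, in capitals, and unequal Ct.
let-7c: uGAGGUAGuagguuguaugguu
let-7b: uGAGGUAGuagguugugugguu
let-7f: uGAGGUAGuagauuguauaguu
miR-29a: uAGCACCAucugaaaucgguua
miR-29b: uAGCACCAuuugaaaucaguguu
miR-16: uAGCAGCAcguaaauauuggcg
miR-322: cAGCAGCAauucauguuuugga
miR-152: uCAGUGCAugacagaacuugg
miR-148a: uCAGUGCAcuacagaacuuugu
The let-7 miRNAs, which restrain growth and mark differentiated cells, spanned 10.1 cycles over 7 assays. let-7c was at 6.14, let-7b, which differs from it in 1 of 22 bases, at 8.29, and let-7f, which differs in 2, at 16.2. let-7i, let-7d, let-7g and let-7e lay between, at 11.1, 12.8, 13.2 and 14.6, and let-7a and miR-98 gave no Ct.

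The miR-29 miRNAs repress collagen genes. Of these, miR-29a and miR-29c were at 7.08 and 8.91 and miR-29b at 18.7. In the miR-15/16 family, which restrains the cell cycle, miR-16 was at 7.37, miR-15b at 14.6, miR-15a at 19.3 and miR-322 at 21.01. miR-195 and miR-497, listed with that family, were at 13.4 and 15.9. The largest span was between miR-152 at 9.88 and miR-148a at 25.3, a difference of 15.4 cycles, and miR-148a was read in 3 of 4 wells.

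Some pairs with 1 seed lay close together. miR-125a-5p and miR-125b-5p differed by 0.256 cycles and miR-27a and miR-27b by 0.213, both under the duplicate SD. miR-146a and miR-146b, whose strands differ in 2 of 22 bases, were at 5.37 and 6.99. The miR-30 family ran from strong to intermediate signals, with miR-30c, miR-30b, miR-30a, miR-30d and miR-30e at 5.16, 6.73, 7.09, 10.7 and 12.8. In the miR-17-92 cluster and its paralogs, which promote growth, 10 of 12 members were read, against 45.6% of all panel A assays. These members ran from miR-92a at 6.80 and miR-20a at 8.43 to miR-18a at 20.0 and miR-19a at 23.3. miR-17, encoded in the same cluster, gave 26.9 in 1 well only. How well each assay works was not measured, so none of these gaps is a ratio of copies.

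**Figure D5:**
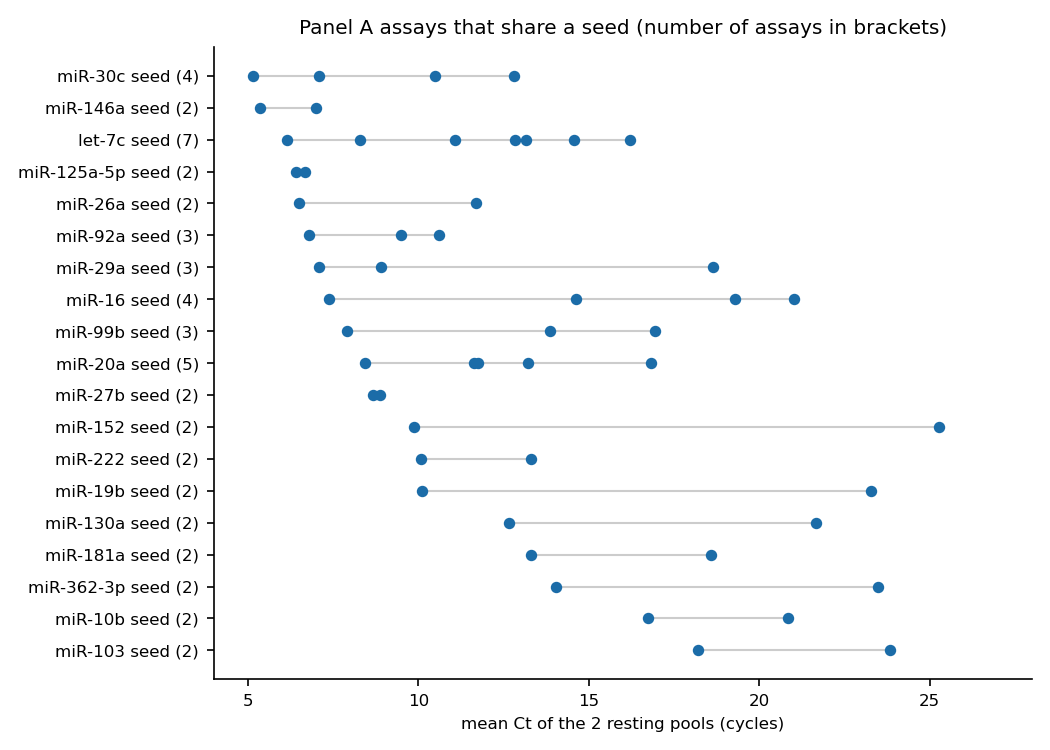
Mean Ct (cycles) of the 2 resting pools for panel A assays that share a seed, 1 row for each of the 19 seeds and named by its strongest member. The miR-152 and miR-148a assays are the farthest apart and the miR-27b and miR-27a assays the closest.

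The arms of 1 hairpin had unequal signals with the same order in both pools. Only arms read on the same panel were compared, since levels were not set across panels. Both arms were read in both pools for 14 such hairpins, and the arm with the lower Ct was the same in the pools in 14 of 14. Every gap was above the median difference between pools on its panel. The share of other pairs that keep their order was not counted, so this is not shown to be particular to arms. Among the 10 pairs named 5p and 3p the 5p arm was lower in 5 and the 3p arm in 5, with a median difference of 8.15 cycles. The pair with the largest difference is printed with the pair of miR-125a, seeds in capitals, to show that arms of 1 hairpin have different seeds.
miR-139-5p: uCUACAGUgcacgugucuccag
miR-139-3p: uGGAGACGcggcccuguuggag
miR-125a-5p: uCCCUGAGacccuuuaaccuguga
miR-125a-3p: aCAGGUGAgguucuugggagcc
miR-139-5p gave 7.01 and 7.40 in pool 1 and 6.41 and 6.79 in pool 2. miR-139-3p gave 25.6 in 1 well of pool 1 and 20.0 and 19.8 in pool 2, a mean gap of 15.8 cycles. The gap was 13.8 cycles for miR-337 (5p lower), 12.7 for miR-125a (5p lower), 11.2 for miR-324 (5p lower) and 9.66 for miR-331 (3p lower). The smallest gaps were 0.904 for miR-1839, 1.65 for the human-named miR-136 and its star strand, and 2.15 for the human-named miR-22 and its star strand. Of the 4 same-panel pairs with a star strand, named as the minor one, the unstarred strand had the lower Ct in 3. For miR-322 the star strand was the lower one, at 17.4 against 21.03.

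Taken over all clusters, miRNA genes that lie close together in the genome had a median gap near that of all pairs, mainly through 1 locus. Genes with 1 locus and at most 10 kb between neighbours formed 12 clusters with 39 assays. The median gap was 5.94 cycles over the 57 pairs within clusters and 5.91 over all 5886 pairs of the same kind. In the Dlk1-Dio3 region of chromosome 12, an imprinted locus with many miRNA genes, 1 cluster ran from miR-434-3p at 9.81 to miR-337-3p at 26.4, and another from miR-410 at 7.57 to a member at 25.8. The clusters of this region, with 7, 3 and 6 assays, supplied most of the pairs within clusters. The median within clusters therefore mainly describes this locus. A median for the other clusters was not taken, so the likeness to all pairs is not shown for them. Clusters elsewhere spanned from 2.60 to 14.9 cycles. The neighbours miR-25, miR-106b and miR-93 on chromosome 5 lay within 2.60 cycles. miR-222 and miR-221, on chromosome X, were at 10.1 and 13.3.

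miR-302b was a strong signal from a family known from embryonic stem cells. It gave 6.43 and 8.37 in pool 1 and 5.56 and 5.00 in pool 2, and all 4 wells of the arthritic pools gave a Ct too, 5.91 and 6.68 in the first and 5.58 and 10.0 in the second. miR-367, encoded beside it, gave 9.41 and 10.6 in pool 1 and 8.45 and 9.51 in pool 2, and in the arthritic pools 10.1 and 9.78 in the second only. miR-302c and miR-302d, of the same cluster, gave no Ct in any pool, and miR-302a gave 11.8 in 1 well of pool 1. Of the stem cell cluster miR-290 to miR-295, miR-292-3p on panel A gave 18.9 and 21.5 in pool 1 and 25.9 in 1 well of pool 2, and its panel B assay gave none. The other 6 members on the list gave none. In all, 3 of 12 pluripotent and germline members were read in both pools, against 45.6% of all panel A assays.

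Some miRNA names were carried by 2 assays, which did not always give the same Ct. Assays were paired by name, and whether both target the same sequence was not checked. Of 24 same-panel pairs of assays named for the same miRNA in different species, both were read in 3, 1 alone was read in both pools in 4, and neither was read in any pool in 16. The mouse- and rat-named assays differed by 4.86 cycles for miR-339-3p (16.7 and 21.5), by 2.62 for miR-1 (19.2 and 16.6) and by 0.550 for miR-224 (17.3 and 16.8). Across panels, whose Ct values are not on a common scale, miR-223 was at 8.52 by the mouse-named assay on panel A and at 4.47 by the human-named assay on panel B. miR-10b was at 16.7 on panel A and 20.4 on panel B, and miR-322 at 21.01 and 21.03.

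The 31 assays read in 1 pool alone were mostly single late wells. Of these 27 had a Ct in 1 well and 24 a Ct of 24 or above. The lowest values, miR-878-5p at 5.03, miR-882 at 10.5, miR-302a at 11.8, miR-1959 at 18.6 and miR-21# at 21.7, each came from a single well with no Ct in the other 3.

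The group average in the authors' deposited table ran against these Ct values. For the 113 panel A and 51 panel B assays matched by name, Spearman's rank correlation between that average and the mean Ct was -0.968 and -0.978. The sum of the average and the Ct had a median of 23.5 on panel A and 23.6 on panel B. In the authors' deposited table a high average thus stands for a low Ct.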

How the data were processed

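The authors deposited Ct values per well from BioMark chips, per the file headers, and they enter here as a score in cycles in which 999 stands for no Ct. Per the labels' protocols, RNA was isolated with a mirVana kit and 500 ng were reverse transcribed. The sources used here do not state the Ct thresholds or quality settings. The authors also deposited group averages on a log2 scale, used once for comparison.

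The wells of a pool were averaged, and an assay counted as read where at least 1 of 2 wells had a Ct. Means of the pools were ranked within panels with pandas 2.3.3 in Python 3.11.15. Assays differ in efficiency and there is 1 group, so no test was made. The count and spread steps were tested on simulated data. Named miRNAs are the 15 with the lowest Ct per panel, list members, the 5 largest pool differences, the 5 lowest read in 1 pool, controls, and the extreme arm and assay pairs. Genes of clusters and miR-223 read on both panels were added after their values were seen. Members and lists were chosen with earlier results of these data known. The alternatives were well rules, a Ct limit of 24, scalings and each pool left out.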

Additional observations from a re-analysis of the deposited data

How the results depend on the processing

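Of 184 alternative values over 66 results, 176 stayed within the duplicate spread, the 95% interval of the correlation or 1.5 times the count. These margins are wide, and a value within them can still have changed. A change from 15 to 10 of the strongest panel A assays and one of the fibroblast list median from 0.39 to 0.11 both counted as within. Assays read in both pools were 157 (panel A) and 91 (panel B) when both wells had to give a Ct, 155 and 90 with Ct under 24, and 175 to 178 and 112 to 116 with 1 pool alone. The rank correlation between the pools on panel A was 0.981 with the lower of the 2 wells and, for the mean Ct, miR-421 was at 8.08 with that rule. Scalings relative to U6 and snoRNA202, chosen after seeing the data, gave medians of -0.61 and -0.23 for the skeletal muscle list, 1.35 and 1.46 for the fibroblast list and 1.74 and 1.72 for the cartilage list. The chip median gave 0.11 for the fibroblast list, and leaving out miR-1, also chosen after seeing the data, gave -1.38 for the muscle list. The cause was not tested. No paired analysis was possible because the 2 pools are the only samples and form 1 group. Depth has no meaning for Ct. Its precision is limited by 2 pools and by duplicate SDs of 0.889 and 1.08 cycles.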
